A study of Mus musculus with 12 samples.

Results

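Lag3 encodes lymphocyte activation gene 3 (LAG3), an inhibitory receptor of T cells, and is described here as 1 gene of the 24421 gene rows in each deposited table. It was chosen by its level, which differed between the groups of this study. Its levels and differences are therefore given as a description with no test, and the values that led to the choice were its regularized log (rlog) values, its mean normalized counts and its FPKM in these comparisons. Regulatory T cells (Tregs), sorted from retrogenic mice, were measured by RNA sequencing in 4 groups of 3 libraries. The groups were Tregs with the 4-8 T cell receptor (TCR) from pancreatic islets, Tregs with the 12-4.4m1 TCR from islets, 4-8 Tregs from spleen and 12-4.4m1 Tregs from spleen. Every library came from NOD mice, a strain that develops autoimmune diabetes, at 6.8 weeks of age. In retrogenic mice the blood cells arise from bone marrow into which TCR genes were introduced, and here the mice carried both receptors, each specific for insulin. The submitters' design text names high and low affinity Tregs, and then 4-8 and 12-4.4m1 in that order. There is 1 receptor of each kind, so the effect of affinity and that of other features of the 2 receptors cannot be told apart. Whether the libraries within a group are from different mice is not given in the labels, and the errors and p-values below measure the spread between these libraries, which may be technical. In such bulk samples fewer Lag3-expressing cells and less Lag3 RNA per cell cannot be told apart.

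LAG3 is a relative of the coreceptor CD4 and, like CD4, binds MHC class II molecules; it reaches the surface of T cells after activation and dampens signals from the TCR. Other ligands described for it include FGL1, galectin-3 and LSECtin. The metalloproteases ADAM10 and ADAM17 cut it from the cell surface. Tregs, activated conventional T cells, natural killer cells and, in mice, plasmacytoid dendritic cells express it, and in NOD mice loss of Lag3 is known to hasten diabetes.

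On the mouse build GRCm38, GENCODE places Lag3 on the minus strand of chromosome 6 at 124904361 to 124911705, beside Cd4, as a protein-coding gene with 2 annotated transcripts. The coding transcript has 8 exons and 1563 coding bases, or 521 codons. The deposited values are per gene and do not separate the transcripts. The coding part of its last exon, which encodes the end of the cytoplasmic tail, is shown because the inhibitory function of LAG3 has been assigned to this tail. It runs 5′ to 3′ along the coding strand, without the untranslated part of the exon, and the 18 capital bases mark the codons of a conserved motif reported in mouse LAG3 as needed for inhibition.
Lag3 exon 8, chr6:124904445-124904600, minus strand: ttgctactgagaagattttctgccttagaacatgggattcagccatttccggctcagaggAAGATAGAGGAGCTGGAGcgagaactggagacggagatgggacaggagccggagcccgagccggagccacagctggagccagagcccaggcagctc

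Each of the 4 comparisons has its own table of 6 libraries, normalized separately, so levels are compared within a table. Foxp3, the factor that defines Tregs, had 159 and 158 FPKM (fragments per kilobase of transcript, scaled to library size, 1 value per group in the authors' deposited tables) in 4-8 and 12-4.4m1 Tregs of islets. In spleen Foxp3 had 170 and 154 FPKM in 4-8 and 12-4.4m1 Tregs. Il2ra, which encodes CD25, had 93.7 and 66.8 FPKM in these islet groups and 87.4 and 85.8 FPKM in these spleen groups. These defining transcripts were thus present in all 4 groups. Library totals cannot be read from rlog values; the mean normalized counts summed to between 898995 and 1316454 per table. For islet 4-8 replicate 3, the column name in the table that compares the TCRs differs from the sample's title, and the column was assigned by elimination. Across 8168 genes, which are not independent replicates, its deviations from the group mean and those of the column titled as islet 4-8 replicate 3 in the other table correlated at r = 0.992. For replicate 2 of both spleen groups, the sample description points to the tissue table of the opposite TCR. The columns follow the titles, which were used, and the spleen calls are given also without both of these libraries.

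In islets, the comparison of the TCRs sets Tregs with the 4-8 receptor against those with the 12-4.4m1 receptor in the tissue where insulin is made. Lag3 had rlog values, on a log2 scale, of 9.72, 9.53 and 10.33 in 4-8 replicates 1, 2 and 3. In 12-4.4m1 replicates 1, 2 and 3 the rlog values were 7.09, 7.26 and 7.60. Every 4-8 library was above every 12-4.4m1 library, and the lowest 4-8 value was 1.94 above the highest 12-4.4m1 value. Without overlap of the groups, 5.92% of genes tested were higher in 4-8, and 0.256% were higher by limma at an adjusted p of 0.05. The means were 9.86 ± 0.42 in 4-8 and 7.32 ± 0.26 in 12-4.4m1 (SD, n = 3 each), a difference of 2.55 ± 0.21 (SE), or 5.84-fold on the rlog scale. By size on the rlog scale this was rank 1 of the 8212 genes tested, followed by the chemokine gene Ccl4 at 2.36 and the granule protein gene Nkg7 at 1.87. The mean normalized count of Lag3 in this comparison was 653 in the authors' deposited table, at rank 177 of the genes tested.

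In spleen, Lag3 was higher in 4-8 too. Its rlog values were 6.05, 6.41 and 6.39 in 4-8 replicates 1, 2 and 3, against 5.47, 5.64 and 5.60 in 12-4.4m1 replicates 1, 2 and 3. The groups again did not overlap, with a gap of 0.41 between the lowest 4-8 and the highest 12-4.4m1 library. Such separation with 4-8 higher was seen for 6.79% of the genes tested in spleen, and 0.209% were higher by limma at an adjusted p of 0.05. The means were 6.29 ± 0.20 in 4-8 and 5.57 ± 0.09 in 12-4.4m1 (SD, n = 3 each), a difference of 0.71 ± 0.13 (SE), or 1.64-fold. It ranked 15 of 9108 genes by size, between the matrix metalloprotease gene Mmp9 at 0.74 and Pglyrp1, which encodes a peptidoglycan recognition protein, at 0.71. Without replicate 2 of both TCRs the difference was 0.69. The authors' mean normalized count was 65.2 here, so the level in spleen rests on far fewer reads than that in islets.

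The comparisons of the tissues ask how islet Tregs differ from spleen Tregs of the same receptor. With the 4-8 receptor, the rlog values of Lag3 were 10.14, 9.94 and 10.72 in islet replicates 1, 2 and 3. In spleen replicates 1, 2 and 3 of 4-8 they were 7.03, 7.37 and 7.35. The lowest islet library was 2.58 above the highest spleen library, where 14.3% of the genes tested were higher in islets without overlap and 5.14% were higher by limma. The means were 10.27 ± 0.41 in islets, against 7.25 ± 0.19 in spleen (± SD, n = 3 each), and the difference of 3.02 ± 0.18 (SE) was 8.11-fold on the rlog scale. At rank 8 of 8981 genes it stood between Il10, the gene of an anti-inflammatory cytokine, at 3.04 and Dusp1, which encodes a phosphatase of MAP kinases.

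With the 12-4.4m1 receptor the islet libraries were higher too. Lag3 had rlog values of 6.31, 6.52 and 6.84 in islet replicates 1, 2 and 3, against 4.94, 5.18 and 5.11 in spleen replicates 1, 2 and 3. The gap between the lowest islet and the highest spleen library was 1.13, in a table where 13.2% of the genes tested were higher in islets without overlap and 4.63% by limma. The means were 6.56 ± 0.27 in islets, against 5.08 ± 0.12 in spleen (± SD, n = 3 each), a difference of 1.48 ± 0.19 (SE), or 2.79-fold. It ranked 43 of 8438 genes, between Clps, which encodes pancreatic colipase, at 1.53 and Pmaip1, which encodes the cell death protein NOXA, at 1.48. Transcripts of the exocrine pancreas, such as Clps, are described with the markers of other cells.

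**Figure D1:**
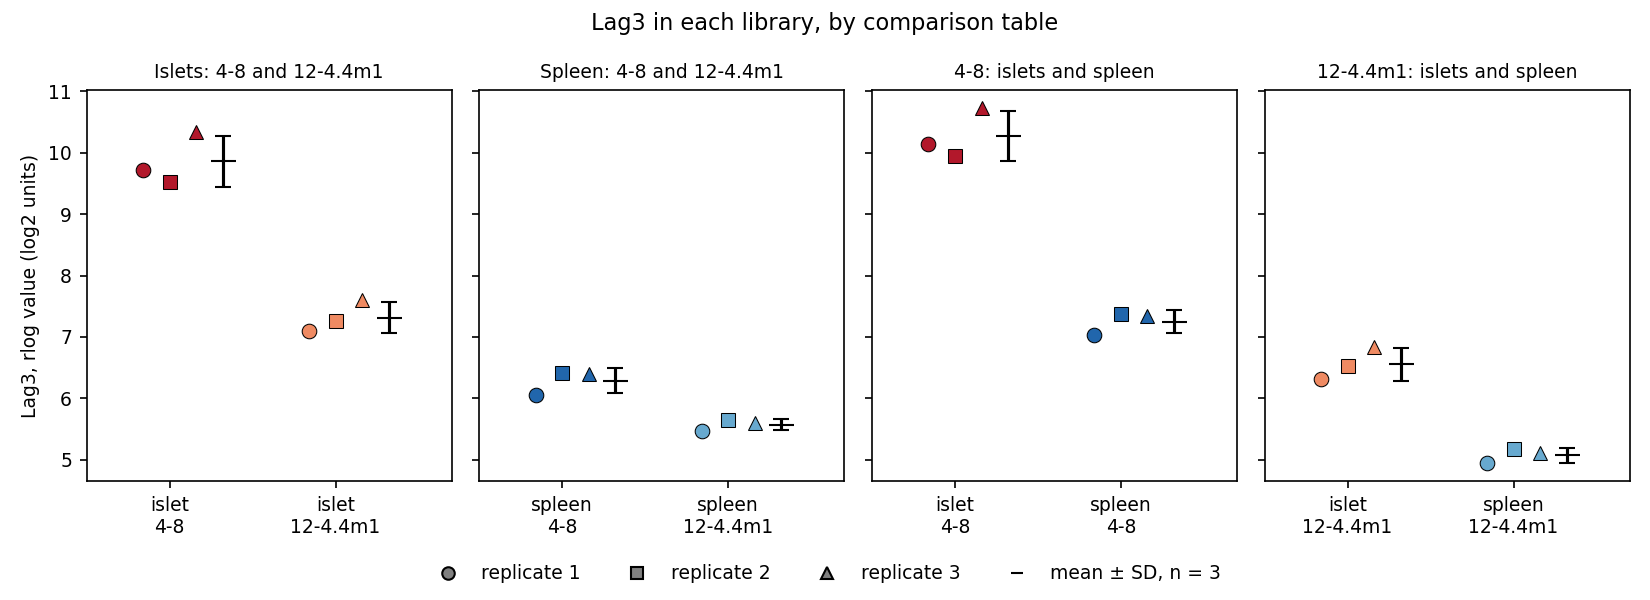
Rlog values of Lag3 (vertical axis, log2 units) in each library of the 4 comparison tables, with replicates 1 to 3 as circles, squares and triangles and the mean ± SD of 3 libraries beside them. In every panel the left group lies above the right one without overlap, with a gap between 0.41 in the spleen panel and 2.58 in the 4-8 panel; levels in different panels are not on a common scale.

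**Figure D2:**
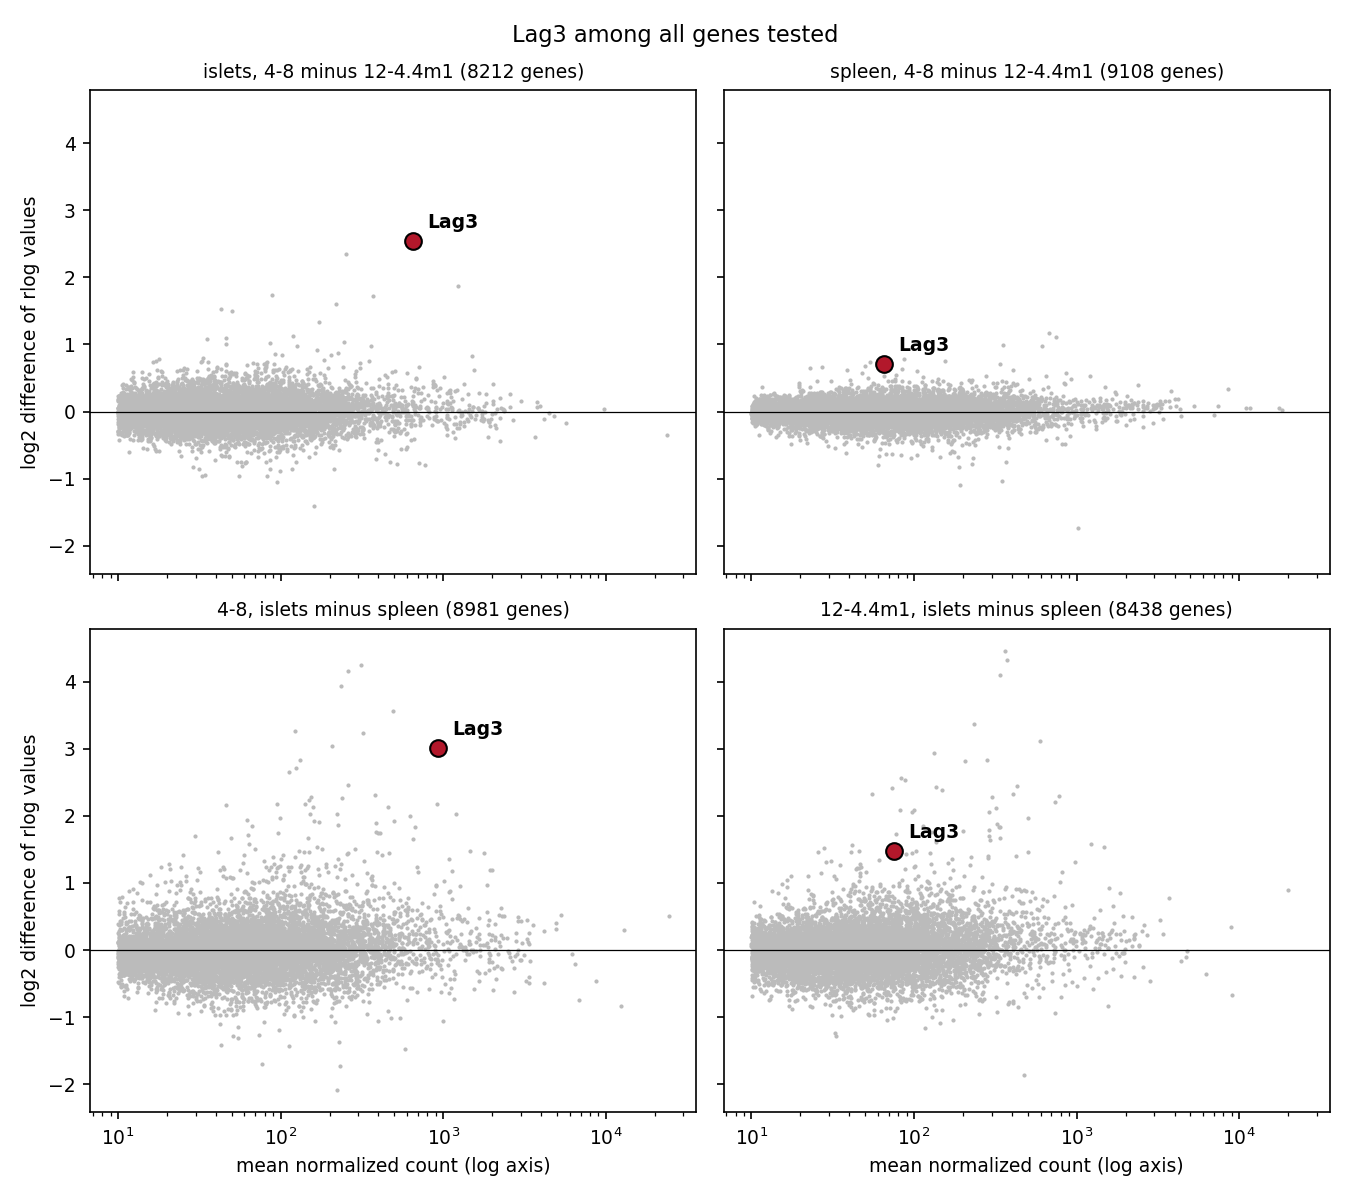
Log2 difference of rlog values (vertical axis) against mean normalized count (horizontal log axis) of every gene tested in each comparison, with Lag3 as the large point. On this scale Lag3 has the largest difference of 8212 genes between the TCRs in islets and lies at ranks 15, 8 and 43 in the spleen, 4-8 and 12-4.4m1 panels.

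The rlog transform shrinks differences of genes with few reads, and the other deposited measures gave wider differences of Lag3. In the authors' deposited table of FPKM, Lag3 was 653 in 4-8 and 68.9 in 12-4.4m1 Tregs of islets, a ratio of 9.47. In spleen the authors' deposited FPKM was 38.2 in 4-8 and 10.7 in 12-4.4m1, a ratio of 3.59. In the tissue tables, the authors' deposited FPKM was 674 in islets and 36.7 in spleen for 4-8, a ratio of 18.4, and 72.0 in islets and 10.3 in spleen for 12-4.4m1, a ratio of 7.02. By the size of the log2 FPKM ratio Lag3 ranked 15 of 8025 genes in islets and 49 of 8872 in spleen between the TCRs, and 25 of 8751 for 4-8 and 59 of 8231 for 12-4.4m1 between the tissues, below its ranks on the rlog scale. The log2 fold changes in the authors' deposited DESeq2 tables, turned to run in the same direction as the differences above, were 2.92 in islets and 1.09 in spleen between the TCRs, and 3.99 for 4-8 and 2.29 for 12-4.4m1 between the tissues. On all these measures Lag3 was higher in 4-8 within each tissue and higher in islets within each receptor. The order of the FPKM was islet 4-8, islet 12-4.4m1, spleen 4-8 and spleen 12-4.4m1. The first and the second of these groups, and the third and the fourth, did not overlap in their rlog tables. Islet 12-4.4m1 and spleen 4-8 share no rlog table, and their FPKM, 68.9 and 38.2, have no replicate error, so their order cannot be set against a spread. Among genes tested, Lag3 ranked 212 by FPKM in islet 4-8 Tregs and 1223 in islet 12-4.4m1 Tregs, of 8030 genes, while in spleen it ranked 2178 in 4-8 and 5715 in 12-4.4m1, of 8878 genes.

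The difference between the receptors was larger in islets than in spleen on every scale computed. On the rlog scale the islet difference of 2.55 exceeded the spleen difference of 0.71 by 1.83. Taken through the tissue tables, the 4-8 difference of 3.02 exceeded the 12-4.4m1 difference of 1.48 by 1.54. On the log2 FPKM scale the same excess was 1.40 through the TCR tables and 1.39 through the tissue tables. Because the tables were normalized separately and Lag3 was chosen for its values, this excess was not tested.

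Relative to Foxp3 in the same library, Lag3 kept its separation. In islets the rlog value of Lag3 minus that of Foxp3 averaged 0.72 ± 0.57 in 4-8 and -1.83 ± 0.26 in 12-4.4m1 (SD, n = 3 each), so that Lag3 lay above Foxp3 in every 4-8 library and below it in every 12-4.4m1 library. In spleen this quantity averaged -3.59 ± 0.23 in 4-8, against -4.16 ± 0.23 in 12-4.4m1 (SD, n = 3 each), with all 4-8 libraries, from -3.85 to -3.44, above all 12-4.4m1 libraries, from -4.34 to -3.90. Per kilobase, the authors' deposited FPKM of Lag3 was 4.12 times that of Foxp3 in islet 4-8 Tregs and 0.437 times in islet 12-4.4m1 Tregs. In spleen it was 0.225 times that of Foxp3 in 4-8 and 0.0692 times in 12-4.4m1. Foxp3 itself did not pass in any comparison, with log2 differences between -0.06 and 0.14 (limma, lowest adjusted p = 0.812).

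In islets, the libraries whose titles end in Treg (4-8 replicate 2, 12-4.4m1 replicates 1 and 2) had the lowest Lag3 values of their group, and those with an R in the title (4-8 replicates 1 and 3, 12-4.4m1 replicate 3) the highest. The libraries titled as Treg also had the highest levels of Xist, the RNA of the inactive X chromosome in female cells, with rlog values of 10.48, 9.39 and 9.98, against 6.51, 7.50 and 7.42 in the R libraries. Title style and Xist thus cannot be told apart in islets, and their part in the spread of Lag3 was not tested. With title style in the fit the islet TCR difference of Lag3 was 2.39, and within the 3 R libraries it was 2.43. In spleen, Xist had rlog values of 7.33, 8.39 and 9.46 in 4-8 replicates 1, 2 and 3, against 8.70, 10.92 and 10.74 in 12-4.4m1 replicates 1, 2 and 3 (log2 difference -1.73 ± 0.38 SE, limma adjusted p = 0.0394); without replicate 2 of both TCRs the difference of -1.33 did not pass. Lag3 and Xist were each lowest in replicate 1 of both spleen groups. With the Xist level as a covariate the spleen difference of Lag3 was 0.90 and the islet difference 2.46.

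The level printed for a library depends on the table. Values of the same islet 12-4.4m1 libraries were 0.73 to 0.78 lower in the tissue table than in the TCR table, and those of the spleen 4-8 libraries were 0.95 to 0.98 higher. The order of the 3 libraries was the same in both tables in all 4 groups.

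LAG3 acts beside the TCR and CD4, and genes of these did not pass between the receptors. Of 14 tested genes of the TCR complex and its coreceptors (16 listed), 0 were higher and 0 lower in 4-8 in islets, and likewise 0 and 0 of 14 in spleen, against 0.365% and 0.428% of all genes called in either direction. A count of 0 of 14 genes is near these shares. In spleen 1 was higher in 4-8 with robust estimation in limma and 1 was lower without 12-4.4m1 replicate 3. The median difference of the list was 0.16 in islets and 0.09 in spleen, where the median over all genes tested was -0.00 in both. Cd4, the coreceptor gene next to Lag3, had rlog values of 9.06, 9.62 and 9.41 in 4-8 and 9.34, 9.53 and 9.31 in 12-4.4m1 islet replicates 1, 2 and 3, which overlapped (log2 difference -0.03 ± 0.19 SE, limma adjusted p = 0.991). In spleen the difference of Cd4 was 0.09 ± 0.12 (SE; limma adjusted p = 0.909). The authors' deposited FPKM of Lag3 was 2.71 times that of Cd4 in islet 4-8 Tregs and 0.288 times in islet 12-4.4m1 Tregs, and it was 0.295 times in spleen 4-8 Tregs and 0.0883 times in spleen 12-4.4m1 Tregs.

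Between the tissues some of these genes were higher in islets. For 4-8, 4 of 14 passed and 0 were lower, where 7.98% of all genes were called: Cd4, the kinase gene Zap70, the signalling chain gene Cd3e and the costimulatory receptor gene Cd28. For 12-4.4m1, 3 of 14 were higher and 0 lower, where 6.81% of all genes were called, namely Cd4, Zap70 and Cd6, which encodes a receptor that tunes TCR signals. Cd6 did not pass without spleen 12-4.4m1 replicate 1 (limma adjusted p = 0.0569). Cd4 averaged 9.81 ± 0.26 in islets, against 9.10 ± 0.05 in spleen for 4-8 (± SD, n = 3 each; log2 difference 0.71 ± 0.15 SE, limma adjusted p = 0.00655). For 12-4.4m1 it averaged 9.37 ± 0.12 in islets, against 8.51 ± 0.13 in spleen (± SD, n = 3 each; log2 difference 0.86 ± 0.14 SE, limma adjusted p = 0.000241). For 4-8, Cd3e at 0.52 and Cd28 at 0.60 passed in 2 of the 6 leave-one-library-out fits, with adjusted p up to 0.184 for Cd3e. Cd3e did not pass for 12-4.4m1 (0.41 ± 0.14 SE, limma adjusted p = 0.0803).

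Around Lag3 on chromosome 6, 12 other genes lie within 100 kb in the authors' tables. Between the receptors 0 of those tested passed in either tissue, where 0.365% of all genes were called in islets and 0.428% in spleen. With so few neighbours a count of 0 is near these shares. Ptms, which encodes the nuclear protein parathymosin and lies 1970 bases from Lag3, had the second largest islet difference of the neighbours (0.67 ± 0.22 SE, limma adjusted p = 0.317). Tpi1, the gene of a glycolytic enzyme 90 kb away, had the largest (0.84 ± 0.25 SE, limma adjusted p = 0.249). Between the tissues for 4-8, Ptms averaged 7.43 ± 0.24 in islets, against 6.34 ± 0.16 in spleen (± SD, n = 3 each; log2 difference 1.09 ± 0.17 SE, limma adjusted p = 0.000532). Tpi1 was higher in 4-8 islets too (log2 difference 1.03 ± 0.20 SE, limma adjusted p = 0.00355); its interval in the authors' table also holds Spsb2, so reads of the pair may be split between them. For 12-4.4m1, Cd4 passed, as given above, while Ptms at 0.69 ± 0.22 SE (limma adjusted p = 0.0635) and Tpi1 at 0.13 (limma adjusted p = 0.840) did not. Usp5, Cdca3, Mlf2, Cops7a and Zfp384 were tested in all 4 comparisons, with differences from -0.25 to 0.49, and did not pass in any; Pianp was tested in spleen and in the 4-8 tissue comparison and did not pass. Gnb3 was listed at 0 FPKM in every group, Gpr162 at most at 0.309 FPKM and Spsb2 at most at 2.87 FPKM.

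**Figure D3:**
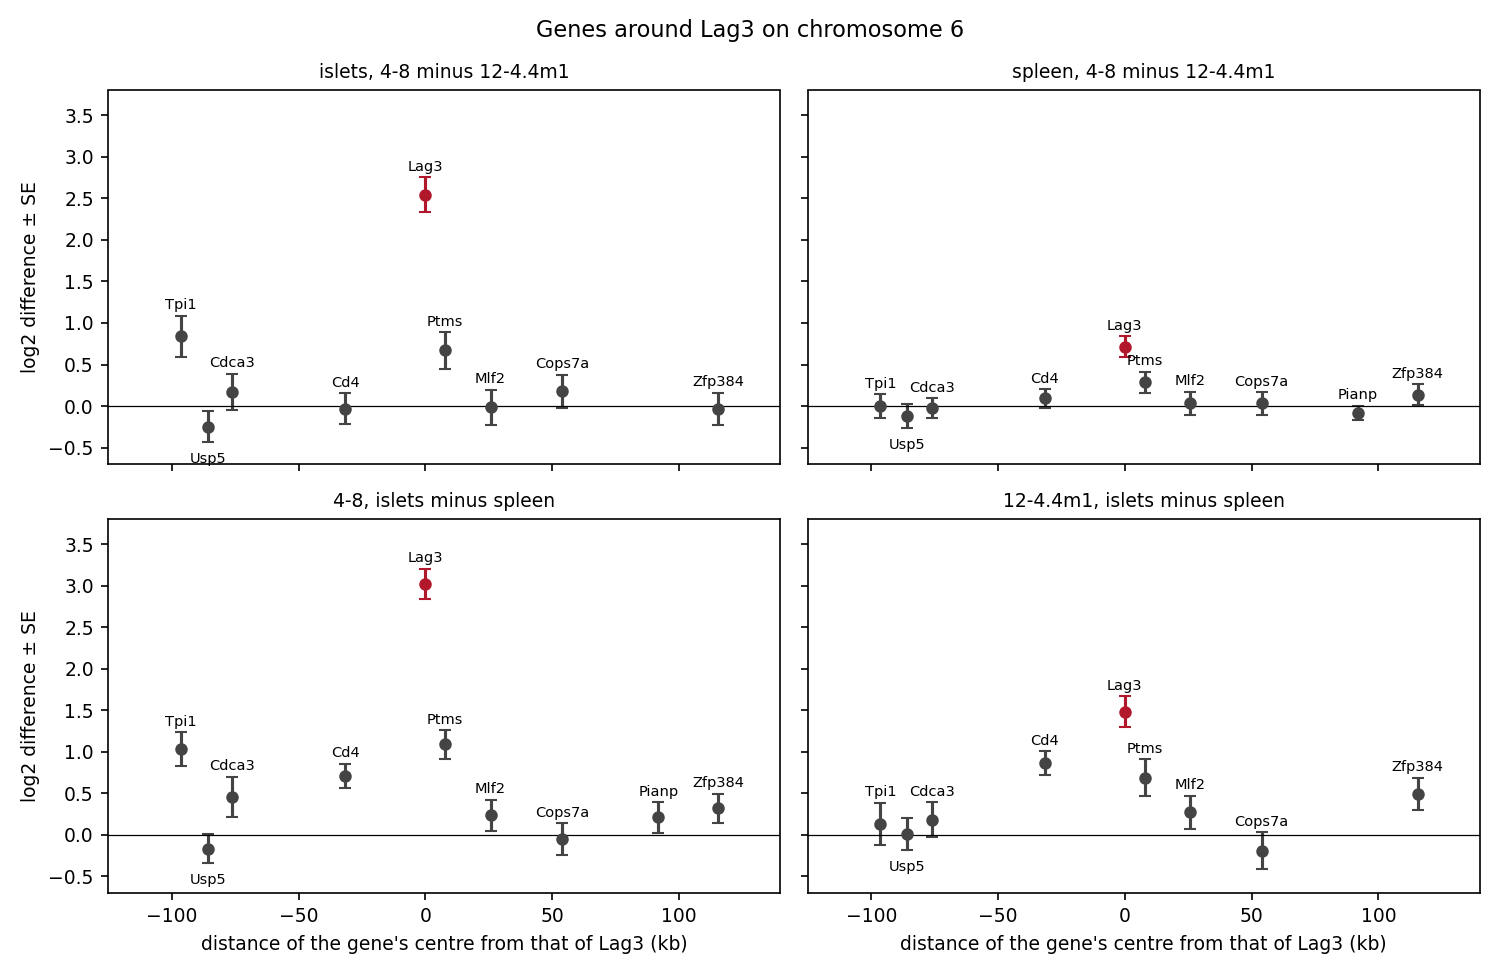
Log2 difference of rlog values ± SE (vertical axis) of Lag3 and of the genes tested within 100 kb of it, placed by the distance of their centres from that of Lag3 in kb (horizontal axis). Between the TCRs in islets Lag3 is at 2.55 while its neighbours lie between -0.25 and 0.84; between the tissues Cd4 is at 0.71 for 4-8 and 0.86 for 12-4.4m1.

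Genes of LAG3 ligands were measured in the same Tregs, which says nothing of the cells that would present them. Of 10 listed, between 4 and 5 were tested per comparison and 0 passed in any of the 4. Between the TCRs 0.365% of all genes were called in islets and 0.428% in spleen. Between the tissues 7.98% were called for 4-8 and 6.81% for 12-4.4m1. With so few ligand genes tested, a count of 0 is near these shares. Cd74, the invariant chain of MHC class II, had 572 and 429 FPKM in 4-8 and 12-4.4m1 Tregs of islets and 534 and 547 FPKM in those of spleen, in the authors' deposited tables. Lgals3, which encodes galectin-3, had 117 and 62.9 FPKM in the same islet groups and 92.7 and 66.7 FPKM in the same spleen groups. Ciita, the master regulator of MHC class II genes, was at 0.348 FPKM or lower in these groups. H2-Eb2, Fgl1 and the LSECtin gene Clec4g were listed at 0 FPKM in all 4 groups.

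The proteases that shed LAG3 did not pass either. Adam10 averaged 7.01 in 4-8 and 7.35 in 12-4.4m1 islet Tregs (log2 difference -0.34 ± 0.19 SE, limma adjusted p = 0.794), and its difference was 0.10 in spleen, -0.15 between the tissues for 4-8 and 0.31 for 12-4.4m1. Adam17 differed by -0.12 ± 0.20 (SE) between the receptors in islets (limma adjusted p = 0.953) and by -0.25, 0.21 and 0.09 in the other three comparisons in the same order. The 12 genes of shedding and its control include iRhoms, tetraspanins, TIMP inhibitors and the kinase gene Prkcq. Between the TCRs 0.365% of all genes were called in islets and 0.428% in spleen. Between the tissues 7.98% were called for 4-8 and 6.81% for 12-4.4m1. Of the shedding genes 5 to 7 were tested per comparison and 0 passed, which is near these shares. Between the tissues for 4-8, 1 was lower in islets with Xist as a covariate or without islet 4-8 replicate 2. Their median difference was -0.12 in islets and 0.02 in spleen between the receptors. The inhibitor genes Timp1 and Timp3 were listed at 0 FPKM in all 4 groups.

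A list of co-inhibitory receptor genes other than Lag3 was compared in the same way. It also holds the costimulatory receptor gene Tnfrsf9 and genes of ligands, such as Cd274, and of enzymes, such as Entpd1. Between the TCRs 0 of 15 tested passed in either direction in islets, where 0.365% of all genes were called, and 0 of 15 in spleen, where 0.428% were, so that a count of 0 is near the share over all genes. In islets 1 was higher in 4-8 with Xist or with title style as a covariate and 2 were without 12-4.4m1 replicate 3. In spleen 1 was higher with Xist as a covariate and 1 was lower without 12-4.4m1 replicate 3. The median difference of the list was 0.18 in islets and -0.03 in spleen. Tigit, an inhibitory receptor of Tregs, had rlog values of 8.75, 8.63 and 8.84 in 4-8 and of 7.82, 7.97 and 8.17 in 12-4.4m1 islet replicates 1, 2 and 3. These groups did not overlap, but the difference did not pass (0.75 ± 0.19 SE, limma adjusted p = 0.0829). Pdcd1, which encodes PD-1, differed by 0.55 ± 0.20 (SE; limma adjusted p = 0.411), Havcr2, which encodes TIM-3, by 0.40 ± 0.24 (SE; limma adjusted p = 0.797) and Ctla4 by 0.18 ± 0.18 (SE; limma adjusted p = 0.905). A result that does not pass does not show that these receptors were at equal levels.

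Between the tissues, 7 of 15 tested genes of this list were higher in islets and 0 lower for 4-8, where 5.14% of all genes were higher. The 6 with the smallest p were Ctla4 (log2 difference 2.03 ± 0.15 SE, limma adjusted p = 1.52e-07), Tigit (1.75), Pdcd1 (1.24), Cd200 (1.05), Tnfrsf9, which encodes the costimulatory receptor 4-1BB (0.95), and Havcr2 (0.77). Ctla4 averaged 10.71 ± 0.17 in islets, against 8.69 ± 0.26 in spleen (± SD, n = 3 each). Havcr2 passed in 3 of the 6 leave-one-library-out fits, with adjusted p up to 0.107. For 12-4.4m1, 4 of 14 were higher and 0 lower, where 4.63% of all genes were higher: Ctla4 (2.21 ± 0.16 SE, limma adjusted p = 2.23e-10), Tigit (1.29), Cd200 (0.95) and Cd274, which encodes PD-L1 (0.64). Cd274 passed in 2 of the 6 leave-one-library-out fits, with adjusted p up to 0.170. Pdcd1 at 0.60 (limma adjusted p = 0.0529) and Havcr2 at 0.87 (limma adjusted p = 0.0540) did not pass for 12-4.4m1. The medians of the list were 0.25 for 4-8 and 0.47 for 12-4.4m1, against -0.01 and -0.00 over all genes tested. Lag3, at 3.02 for 4-8, had the largest tissue difference of these genes with that receptor, and for 12-4.4m1, at 1.48, it came after Ctla4.

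Levels per kilobase place Lag3 differently among these genes in each group. By FPKM in the authors' deposited tables, Lag3 was the second of 19 genes, Lag3 and this list, in islet 4-8 Tregs. It was at 653, after Ctla4 at 816 and before Tigit at 605. In islet 12-4.4m1 Tregs it was the fifth, at 68.9, after Ctla4 at 691, Klrg1 at 327, Tigit at 302 and Tnfrsf9 at 296. In spleen it was the fifth in 4-8 Tregs and ranked 15 in 12-4.4m1 Tregs, where Klrg1, a receptor of mature Tregs, was the most abundant in both groups, at 578 FPKM in 4-8 and 413 FPKM in 12-4.4m1.

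**Figure D4:**
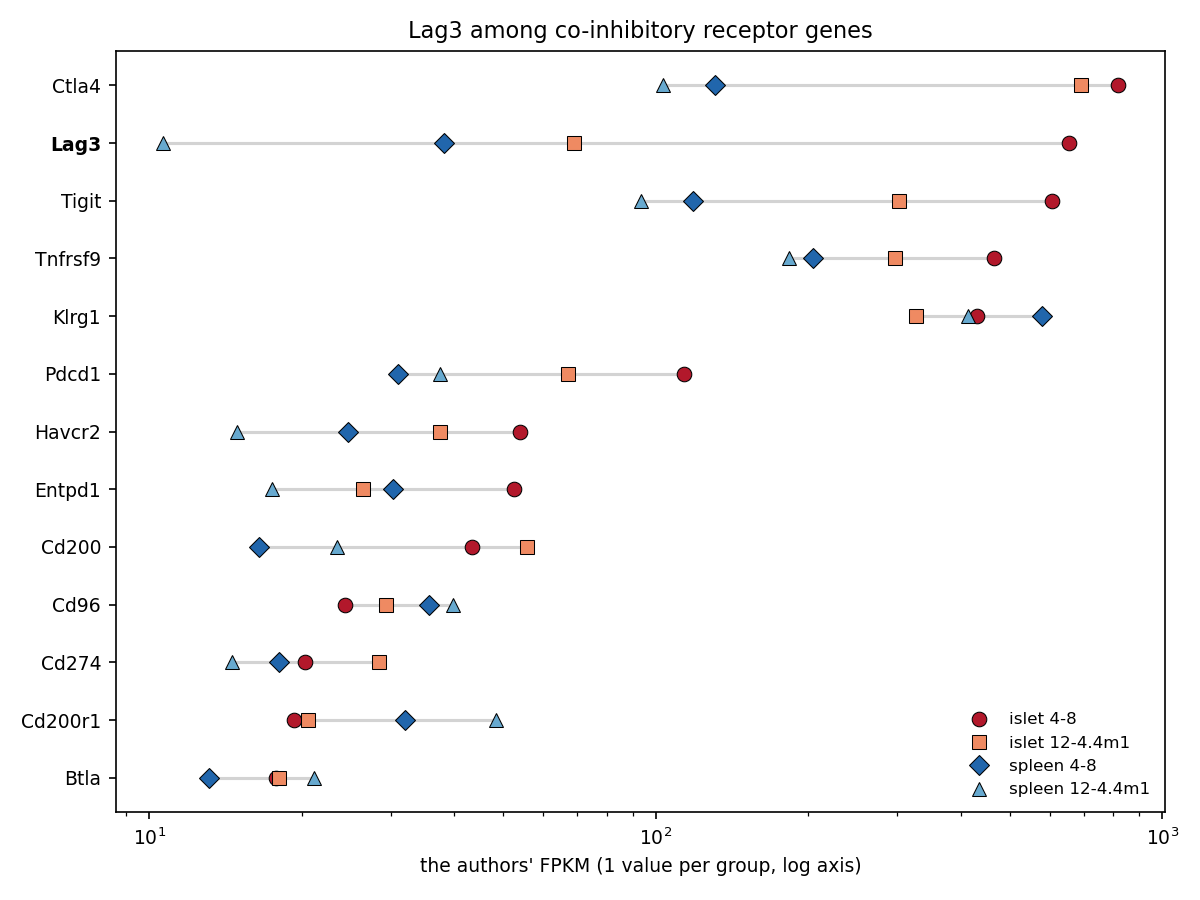
The authors' FPKM (horizontal log axis, 1 value per group with no error) of Lag3 and of the genes of the co-inhibitory receptor list that reach 20 FPKM in at least 1 group, from the TCR tables. Lag3 spans from 653 FPKM in islet 4-8 Tregs to 10.7 FPKM in spleen 12-4.4m1 Tregs, whereas Ctla4 spans from 816 to 103 FPKM in the same groups.

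Transcription factors linked to co-inhibitory receptor genes in T cells were compared next. In both TCR comparisons 0 of 24 tested passed, where 0.365% of all genes were called in islets and 0.428% in spleen. A count of 0 of 24 factors is near these shares. In spleen 2 were lower in 4-8 without 12-4.4m1 replicate 1 and 1 was lower with robust estimation in limma. Their median difference was 0.02 in islets and 0.05 in spleen. The factors Maf and Prdm1, known to promote co-inhibitory receptor genes in mouse T cells, differed by 0.35 ± 0.18 (SE; limma adjusted p = 0.760) and 0.38 ± 0.20 (SE; limma adjusted p = 0.750) in islets. Egr2 and Nr4a1, which are induced by TCR signals, had negative differences in islets that did not pass. Egr2 had rlog values of 5.89, 5.84 and 6.26 in 4-8 and of 6.91, 6.62 and 6.23 in 12-4.4m1 islet replicates 1, 2 and 3, which overlapped (log2 difference -0.59 ± 0.21 SE, limma adjusted p = 0.382), and Nr4a1 averaged 8.26 in 4-8 and 8.84 in 12-4.4m1 (-0.57 ± 0.20 SE, limma adjusted p = 0.382). Tox, a factor of chronically stimulated T cells, differed by 0.22 and Egr3 by -0.12 in islets, and both did not pass in any of the 4 comparisons.

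Between the tissues factors of this list were higher in islets. For 4-8, 12 of 23 were higher and 0 lower, where 5.14% of all genes were higher, and for 12-4.4m1, 11 of 24 were higher and 0 lower, where 4.63% of all genes were higher. For 4-8 the 6 with the smallest p were the activation-induced factors Nr4a1, Nr4a2 and Nr4a3, then Bhlhe40, Ahr and Irf4, and Nr4a2 differed by 2.83 ± 0.22 (SE; limma adjusted p = 2.21e-07). Nr4a1 averaged 8.30 ± 0.28 in islets, against 6.03 ± 0.23 in spleen for 4-8, and 8.58 ± 0.29 in islets, against 5.75 ± 0.61 in spleen for 12-4.4m1 (SD, n = 3 each). Its difference was 2.27 ± 0.18 (SE; limma adjusted p = 2.21e-07) for 4-8 and 2.83 ± 0.22 (SE; limma adjusted p = 1.52e-09) for 12-4.4m1. For 12-4.4m1 the 6 with the smallest p were Nr4a1, Nr4a3, Nr4a2, Bhlhe40, Stat3 and Egr2. Egr2 differed by 1.09 ± 0.19 (SE; limma adjusted p = 0.00157) for 4-8 and by 1.37 ± 0.21 (SE; limma adjusted p = 0.000113) for 12-4.4m1. Prdm1 differed by 0.88 ± 0.17 (SE; limma adjusted p = 0.00315) for 4-8 and by 0.75 ± 0.16 (SE; limma adjusted p = 0.00321) for 12-4.4m1. The median difference of the list was 0.46 for 4-8 and 0.43 for 12-4.4m1. Maf was higher in islets for 4-8 (0.46 ± 0.14 SE, limma adjusted p = 0.0489), but passed in 2 of the 6 leave-one-library-out fits, with adjusted p up to 0.263.

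Lag3 also marks type 1 regulatory T cells, IL-10-producing cells that can be induced by IL-27. Of 12 tested genes of that program and of the IL-27 axis, 1 was higher and 0 lower in 4-8 in islets, where 0.256% of all genes were higher. It was Il10. Its rlog values of 4-8 and 12-4.4m1 overlapped, from 6.79 in the lowest 4-8 library to 7.16 in the highest 12-4.4m1 library, with means of 7.64 ± 0.75 and 6.31 ± 0.73 (SD, n = 3 each; log2 difference 1.33 ± 0.29 SE, limma adjusted p = 0.0301). Il10 passed in 2 of the 6 leave-one-library-out fits, with adjusted p up to 0.475. In spleen, where 0.209% of all genes were higher, 1 of 12 was higher, the granzyme gene Gzmb (0.98 ± 0.14 SE, limma adjusted p = 0.000458), and 1 was lower, the adhesion receptor gene Cd226 (-0.64 ± 0.15 SE, limma adjusted p = 0.0476). Of the 9108 genes tested in spleen, 20 were lower in 4-8. Cd226 passed in 2 of the 6 leave-one-library-out fits, with adjusted p up to 0.369. Without spleen replicate 2 of both TCRs Gzmb still passed, at a difference of 0.82, and Cd226, at -0.57, did not. Il10 was below the filter in spleen, with 7.58 FPKM in 4-8 and 2.58 FPKM in 12-4.4m1 in the authors' deposited table. Between the tissues 8 of 14 were higher and 1 lower for 4-8, where 5.14% of all genes were higher, and 5 of 13 higher and 0 lower for 12-4.4m1, where 4.63% were, both counts led by Il10 and the costimulatory receptor gene Icos. Without spleen 4-8 replicate 1, 5 of the list were higher and 0 lower for 4-8. Of the 8981 genes tested for 4-8, 255 were lower in islets with all libraries. Il10 averaged 7.86 ± 0.82 in islets, against 4.82 ± 0.32 in spleen for 4-8 (± SD, n = 3 each; log2 difference 3.04 ± 0.29 SE, limma adjusted p = 2.41e-06). For 12-4.4m1 it averaged 5.35 ± 0.76 in islets, against 3.79 ± 0.21 in spleen (± SD, n = 3 each; log2 difference 1.57 ± 0.26 SE, limma adjusted p = 0.000252). The gene lower in 4-8 islets was Ebi3, which encodes a subunit of IL-27 and IL-35 (-0.78 ± 0.19 SE, limma adjusted p = 0.0175). Ebi3 passed in 4 of the 6 leave-one-library-out fits, with adjusted p up to 0.141. Itga2, also of this list, was below the filter in islets, at 0.975 FPKM in 4-8 and 3.45 FPKM in 12-4.4m1. In spleen it differed by -0.22 ± 0.11 (SE) between the TCRs and did not pass. Between the tissues it differed by -0.31 ± 0.17 (SE) for 4-8 and -0.22 ± 0.21 (SE) for 12-4.4m1, and did not pass. The median difference of the list was 0.24 in islets and -0.06 in spleen between the TCRs. Between the tissues the median was 0.61 for 4-8 and 0.50 for 12-4.4m1.

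Among Treg identity genes, 13 of 14 listed were tested in each comparison. Between the TCRs 0 of 13 passed in islets, where 0.365% of all genes were called. In spleen, where 0.209% of all genes were higher, 1 of 13 was higher in 4-8, the IL-2 receptor chain gene Il2rb (0.57 ± 0.13 SE, limma adjusted p = 0.0391), which passed in 4 of the 6 leave-one-library-out fits, with adjusted p up to 0.369, and did not pass without spleen replicate 2 of both TCRs. Between the tissues 4 of 13 were higher in islets for 4-8, namely Ctla4, Lrrc32, Itgb8 and Capg, where 5.14% of all genes were higher. For 12-4.4m1, 3 of 13 were higher, namely Ctla4, Lrrc32 and Il2rb, where 4.63% of all genes were. Capg passed for 4-8 in 3 of the 6 leave-one-library-out fits, with adjusted p up to 0.0930, and Il2rb for 12-4.4m1 in 5 of the 6, with adjusted p up to 0.0632. Lrrc32, which encodes the TGF-beta carrier GARP, differed by 1.22 ± 0.18 (SE; limma adjusted p = 0.000226) for 4-8 and by 1.26 ± 0.24 (SE; limma adjusted p = 0.00148) for 12-4.4m1.

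Markers of other cells that express Lag3 or could enter the sort were low, with exceptions. Natural killer and CD8 T cell genes summed to 60.6 FPKM in 4-8 and 27.8 FPKM in 12-4.4m1 Tregs of islets. In spleen they summed to 48.4 FPKM in 4-8 and 51.7 FPKM in 12-4.4m1 Tregs. Of 11 listed, 2 were tested and 0 passed between the islet groups, where 0.365% of all genes were called. In islet 4-8 Tregs Klrd1, the gene of the receptor chain CD94, was at 30.2 FPKM and Klre1, named after its values were seen, at 12.8 FPKM, against 3.30 and 0 FPKM in islet 12-4.4m1 Tregs. In the same islet groups Ncr1 was listed at 0, Cd8a at most at 0.0570 FPKM and the perforin gene Prf1 at most at 1.81 FPKM. Klrd1 was higher in islets than in spleen for 4-8 (0.96 ± 0.23 SE, limma adjusted p = 0.0139). It passed in 4 of the 6 leave-one-library-out fits, with adjusted p up to 0.0704, and not without spleen 4-8 replicate 1 or 3. Of the 3 genes of this list tested there, only Klrd1 had a positive difference, and the list median was -0.24. With a replicate block, with Xist as a covariate or without islet 4-8 replicate 2, 1 of the list was higher and 1 lower. The part of natural killer and CD8 T cells in the level of Lag3 was not tested. Plasmacytoid dendritic cell genes summed to 87.8 FPKM in 4-8 and 67.7 FPKM in 12-4.4m1 Tregs of islets and to 67.4 and 61.8 FPKM in those of spleen, mostly Bst2, which many cells express. Among them Cox6a2 was listed at 0 in all groups and Siglech at most at 0.171 FPKM; Pacsin1 was higher in islets for 4-8 (0.70 ± 0.19 SE, limma adjusted p = 0.0277), but passed in 2 of the 6 leave-one-library-out fits, with adjusted p up to 0.140. B cell genes summed to at most 10.9 FPKM in a group, with Pax5 listed at 0 in all. Of the myeloid sum, 616 FPKM in 4-8 and 489 FPKM in 12-4.4m1 Tregs of islets, Cst3 made up 597 and 477 FPKM, whereas Csf1r was at 0.531 FPKM or lower. Islet and acinar genes summed to 85.8 FPKM in 4-8 and 184 FPKM in 12-4.4m1 Tregs of islets, against 18.7 and 38.0 FPKM in those of spleen. With each receptor 2 of 4 tested were higher in islets, Pnlip and Try4, both of acinar cells. Of all genes, 5.14% were higher in islets for 4-8 and 4.63% for 12-4.4m1. Between the TCRs in islets 0 of 5 tested islet and acinar genes passed, where 0.365% of all genes were called.

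The 10 genes whose pattern lay closest to that of Lag3 were Ccl4, Ifng, Hilpda, Dusp5, Tigit, Litaf, Nkg7, Crem, Nfil3 and Sik1, in this order. Likeness was the root mean square distance over 24 library values (12 libraries, each in 2 tables), each gene centred on its mean in each table, among 7927 genes that passed the filter in all 4 tables. The distance was 0.561 for Ccl4 and 0.685 for Sik1, against a median of 1.11 over all these genes. A gene with no differences at all would lie at a distance of 1.09. The values that chose these genes are those described here, so no test is given. Ccl4, which encodes a chemokine, differed by 2.36 in islets and 0.78 in spleen between the receptors, and by 1.75 for 4-8 and 0.47 for 12-4.4m1 between the tissues. Its rlog values in islets were 8.20, 8.72 and 8.40 in 4-8 replicates 1, 2 and 3, against 6.45, 5.63 and 6.17 in 12-4.4m1 replicates 1, 2 and 3, without overlap. In the 12-4.4m1 tissue table its groups overlapped, since spleen replicate 2 was at 5.63, as high as the highest islet library. Nkg7 followed Lag3 between the receptors, at 1.87 in islets and 1.11 in spleen, but differed by 1.20 for 4-8 and 0.58 for 12-4.4m1 between the tissues. Ifng, the gene of interferon-gamma, differed by 1.12 and 0.27 between the receptors in islets and spleen, and by 2.02 and 1.11 between the tissues for 4-8 and 12-4.4m1.

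The other genes in this order, apart from Litaf, differed more between the tissues than between the receptors. For Litaf the islet receptor difference exceeded the tissue difference for 12-4.4m1. Hilpda, which encodes a lipid droplet protein induced by hypoxia, differed by 0.64 in islets and -0.03 in spleen between the receptors, against 2.28 for 4-8 and 1.34 for 12-4.4m1 between the tissues. Dusp5, which encodes a phosphatase of ERK kinases, differed by 0.57 and 0.19 between the receptors in islets and spleen, and by 1.71 between the tissues for 12-4.4m1. Litaf, a regulator of endosomal sorting, differed by 0.98 and 0.25 between the receptors in islets and spleen, and by 1.53 and 0.73 between the tissues. Tigit, given above, had 0.75 and 0.24 between the receptors and 1.75 and 1.29 between the tissues in the same order. The transcription factor genes Crem and Nfil3 and the kinase gene Sik1 differed by 0.31 to 0.59 between the receptors in islets, and by 1.91 to 1.96 for 4-8 between the tissues. By the distance over the 4 differences alone, 9 of the 10 were again among the nearest 10. With a minimum mean normalized count of 50 in all 4 tables, which leaves 3505 genes, 3 of the 10 were. Only Dusp5, Tigit and Nkg7 of the 10 reach this minimum, so no more than 3 could be.

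**Figure D5:**
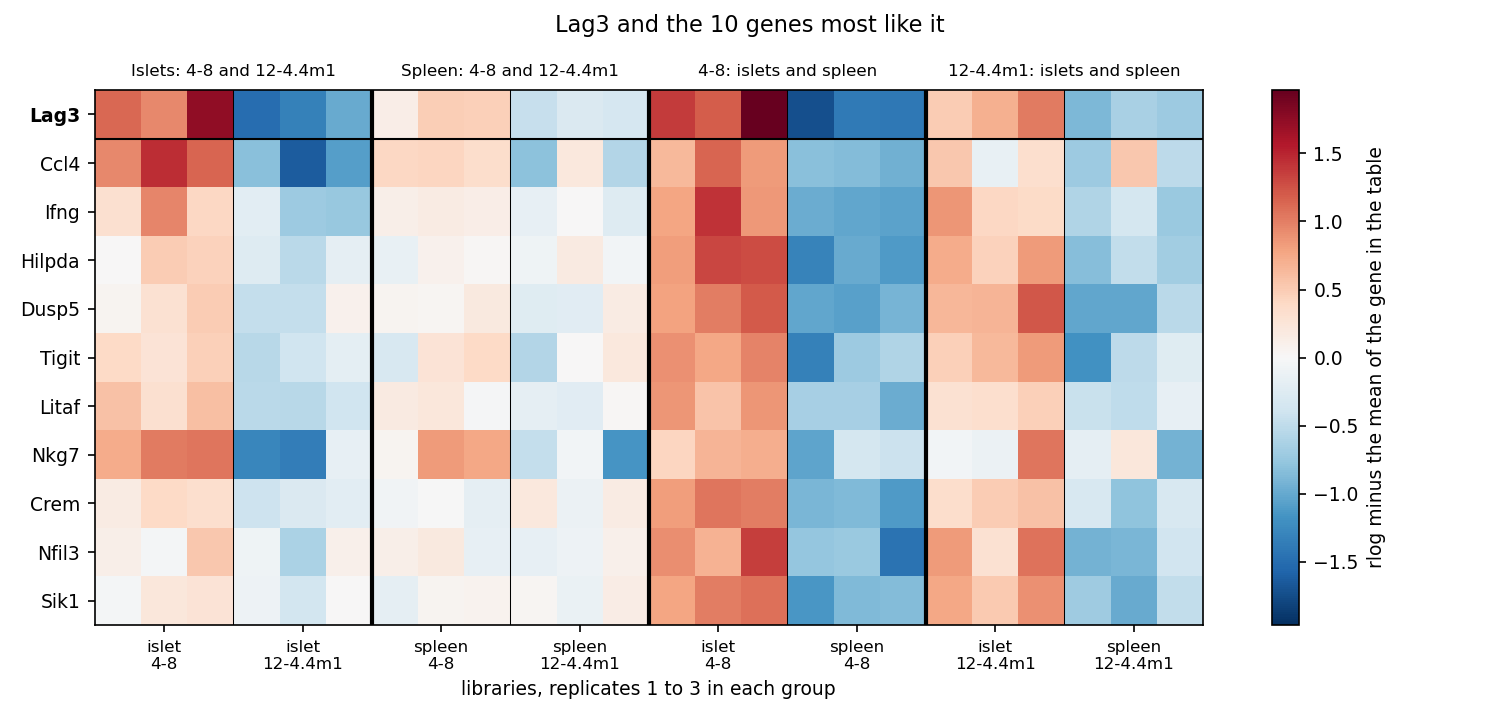
Rlog values, centred on the mean of each gene in each table (colour, log2 units), of Lag3 and the 10 genes nearest to it in the 24 library values, with replicates 1 to 3 of each group in adjacent columns. Ccl4 and Nkg7, at differences of 2.36 and 1.87, share the contrast of Lag3 between the receptors in islets, while Hilpda and Sik1, at 0.64 and 0.31, show mainly the contrast between the tissues.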

How the data were processed

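RNA from sorted Tregs was lysed with Triton X-100, reverse transcribed, amplified and made into Nextera XT libraries, per the labels' protocols. To make the files, per the submitters' processing notes, the authors used TopHat 1.0.0, Cufflinks, STAR 1.1.0, DESeq, DESeq2 1.1.0 and the builds mm10 and GRCm38, without stated roles. The authors deposited, for each of 4 comparisons, rlog values (a log2 scale that shrinks genes with few reads) of 6 libraries. The authors also deposited DESeq2 tables with mean normalized counts (a coverage signal per gene, as counts divided by size factors), log2 fold changes and adjusted p-values, and Cuffdiff tables with 1 FPKM per group. Library totals are not given by these units, so the depth of each library is unknown, and FPKM carry no error.

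Groups were taken from the labels. Genes with a mean normalized count of at least 10 were tested in each rlog table with limma 3.58.1 in R 4.3.3 (lmFit, eBayes with trend, 2-sided), with Benjamini-Hochberg adjustment over all genes tested and a threshold of 0.05. A difference is the first group minus the second in rlog units, and the authors' DESeq2 fold changes, which run the other way, were turned round. 4 rows of 2 repeated symbols were left out. Lag3, the 12 gene lists and the rule for named genes were chosen with earlier results of these data known. By that rule the text names up to 6 passing genes of each list per comparison, a set of genes given whether they passed or not (such as Cd4, Foxp3, Ctla4, Egr2 and Xist), genes within 100 kb of Lag3, the 10 genes most like it and those next to it in rank. The limma fit was tested on simulated data. Alternatives were leaving out each library, other minima, limma settings, a replicate block, Xist or title style as covariates, other centrings and the authors' DESeq2 and FPKM. Exon coordinates and the exon sequence came from GENCODE M21 on GRCm38, read with Python 3.11.15; figures were drawn with matplotlib 3.10.9. Replicate numbers were not taken to pair libraries.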

Additional observations from a re-analysis of the deposited data

How the results depend on the processing

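Lag3 kept the direction of its difference under every alternative run in the 4 comparisons. This is a description and no test, since Lag3 was chosen by the same values. Its groups did not overlap in any comparison, so leaving out 1 library could not reverse the direction. The size of the difference moved with the scale. The authors' DESeq2 log2 fold change was 2.92 in islets and 1.09 in spleen between the TCRs, and 3.99 for 4-8 and 2.29 for 12-4.4m1 between the tissues. The log2 ratio of FPKM was 3.24, 1.84, 4.20 and 2.81 in the same order, and 3.23, 1.75, 4.16 and 2.70 with a pseudocount of 1. In spleen the difference was 0.90 with Xist as a covariate, 0.54 relative to T cell genes and 0.20 with replicate 2 of the TCRs exchanged. For 12-4.4m1 it was 1.76 without the islet libraries titled as Treg, which leaves 1 islet library. Leaving out 1 library gave 2.31 to 2.71 in islets and 0.65 to 0.83 in spleen between the TCRs, and 2.79 to 3.18 for 4-8 and 1.34 to 1.60 for 12-4.4m1 between the tissues. The excess of the islet over the spleen difference was 1.54 in the tissue tables, and 1.40 and 1.39 from FPKM.

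The count of genes called by limma was less stable; the cause was not tested. In islets the count of 30 became 15 with a minimum of 50, 50 with Xist and 52 with title style as a covariate, 16 without the 3 libraries titled as Treg, and 9 (without 12-4.4m1 replicate 1) to 44 without 1 library. In spleen 39 became 21 with a minimum of 1, 17 without a trend, 19 with Xist, 11 without replicate 2 of both TCRs, 21 in the authors' DESeq2 table and 14 to 56 without 1 library. With spleen replicate 2 exchanged limma called 0 genes, and 244 had an unadjusted p under 0.05. Between the tissues, leaving out 1 library gave 306 to 1211 for 4-8 (717 with all) and 288 to 610 for 12-4.4m1 (575 with all).

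In no table did every same-numbered pair correlate above 0.1 in its deviations, so the numbers were not used as pairs. With a replicate block the spleen count became 78 (36 higher, 42 lower), and the others 37 in islets, 729 for 4-8 and 724 for 12-4.4m1. The block also changed calls within lists. Of the spleen genes, 2 of the TCR complex were then higher in 4-8, 2 factors lower and 2 Treg identity genes higher. In islets 1 gene of the co-inhibitory receptor list was higher. Between the tissues 1 shedding gene was lower for 4-8, and 7 genes of the co-inhibitory receptor list were higher for 12-4.4m1. In spleen all 3 pairs correlated positively (0.120, 0.0865 and 0.0748). There every 4-8 library correlated best with the 12-4.4m1 library of its own number. In the other comparisons this held only for replicate 3 in islets and for replicate 1 of 12-4.4m1 between the tissues. The correlations of replicates 1, 2 and 3 were -0.0390, 0.127 and 0.209 in islets. Between the tissues they were -0.0559, -0.118 and -0.0480 for 4-8 and 0.0404, -0.0330 and -0.00853 for 12-4.4m1. The mice carried both receptors, so libraries of the same number may share a mouse, which the labels do not state.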
